A study of Mus musculus with 4 samples.

Results

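L5-S100b neurons are the excitatory neurons of the mouse ventromedial prefrontal cortex (vmPFC) that carry the label L5-S100b in the cell metadata deposited with the count matrices. Cells were chosen by that label alone, by library and cell barcode. There were 1409 L5-S100b neurons among 9368 labelled excitatory neurons, in libraries that held 24801 cell barcodes in all. They numbered 432, 338 and 326 in unsorted replicates 1, 2 and 3, and 313 were sorted cells. The label came from clustering these cells on their own expression, so a difference in a gene between L5-S100b and other neurons is given below as a description without a test.

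Layer 5 of the cortex holds several classes of excitatory neuron. Intratelencephalic neurons send axons to other cortical areas, to the striatum and to the amygdala, extratelencephalic neurons reach the thalamus, hypothalamus and brainstem, and near-projecting neurons keep their axons local. Corticothalamic neurons of layer 6 send axons to the thalamus. S100b encodes a small EF-hand calcium-binding protein that is best known as a product of astrocytes and is also made by some oligodendrocytes and neurons.

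All libraries came from male C57BL/6 mice injected at 8 weeks of age with rAAV2-retro viruses that carried EGFP and a barcode under a short CAG promoter. A different barcode went into each of 5 targets, namely the lateral hypothalamus (LH), the basolateral amygdala (BLA), the agranular insula (AI), the mediodorsal thalamus (MD) and the dorsomedial striatum (DMS). Every mouse carried all of them and no library was free of virus. The prelimbic and infralimbic areas were dissected from slices and dissociated, and 3' single-cell libraries were made. Unsorted replicates 1, 2 and 3 are titled as mouse 1, 2 and 3, and the sorted library held EGFP-positive cells pooled from 3 further mice, so the sort, its animals and its preparation cannot be told apart. The matrices hold 1 pooled barcode feature that does not name the target.

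Whole-library measures touched the results in the following ways. Unsorted L5-S100b neurons had medians of 23662, 26272 and 27213.5 UMIs and sorted ones of 33024, and mitochondrial genes took a median of 7.33%, 7.56% and 7.37% of UMIs against 3.92%. The summed L5-S100b neurons of a library held 8762966 to 10418961 UMIs and the summed remaining neurons 40968831 to 50974906. Libraries shared 5 to 30 cell barcodes pairwise, and 0 of them were L5-S100b neurons in both libraries of a pair. L6-Syt6 neurons made up 5092 of the 9368 neurons, and the remainder against which L5-S100b was set was therefore mostly 1 layer 6 subtype.

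S100b itself set the cells apart in every library. In CPM of TMM-scaled sums (CPM are counts scaled to a common total for the summed cells), S100b stood at 44.8, 56.8, 54.3 and 39.0 in L5-S100b neurons of unsorted replicates 1, 2 and 3 and of the sorted library. The other excitatory neurons of the same libraries held 3.24, 2.90, 4.12 and 1.58 CPM. The lowest L5-S100b value was far above the highest value of the others, and the log2 ratio was 4.07 ± 0.41 (SD, n = 4 libraries). The S100b gene (ENSMUSG00000033208) lies on the plus strand of chr10:76253853-76261159 in GRCm38.

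The start of the gene that names these neurons is shown as RefSeq places it in GRCm38.p6, on the plus strand of chr10:76253586-76253885, from 250 bases before the transcription start to 50 bases after it.
S100b promoter: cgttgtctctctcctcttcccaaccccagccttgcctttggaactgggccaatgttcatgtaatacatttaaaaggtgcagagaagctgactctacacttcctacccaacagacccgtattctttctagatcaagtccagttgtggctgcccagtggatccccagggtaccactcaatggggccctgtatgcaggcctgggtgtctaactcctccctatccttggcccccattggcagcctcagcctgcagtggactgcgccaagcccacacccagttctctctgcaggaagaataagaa
The letters of 3 motifs were searched on both strands, an ETS motif (CCGGAAG), a LIM homeodomain motif (TAATTA) and a TATA motif (TATAAA), and none occurs in the S100b window, so no letters are in capitals. Of 10521 windows of genes with a ratio, 17.9% hold the ETS motif, 2.43% the LIM homeodomain motif and 6.61% the TATA motif. Of the 220 windows found for 165 of the 216 genes that stood higher in L5-S100b, 2.73%, 2.73% and 10.9% hold them. These are counts of letters in windows and say nothing of binding.

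**Figure D1:**
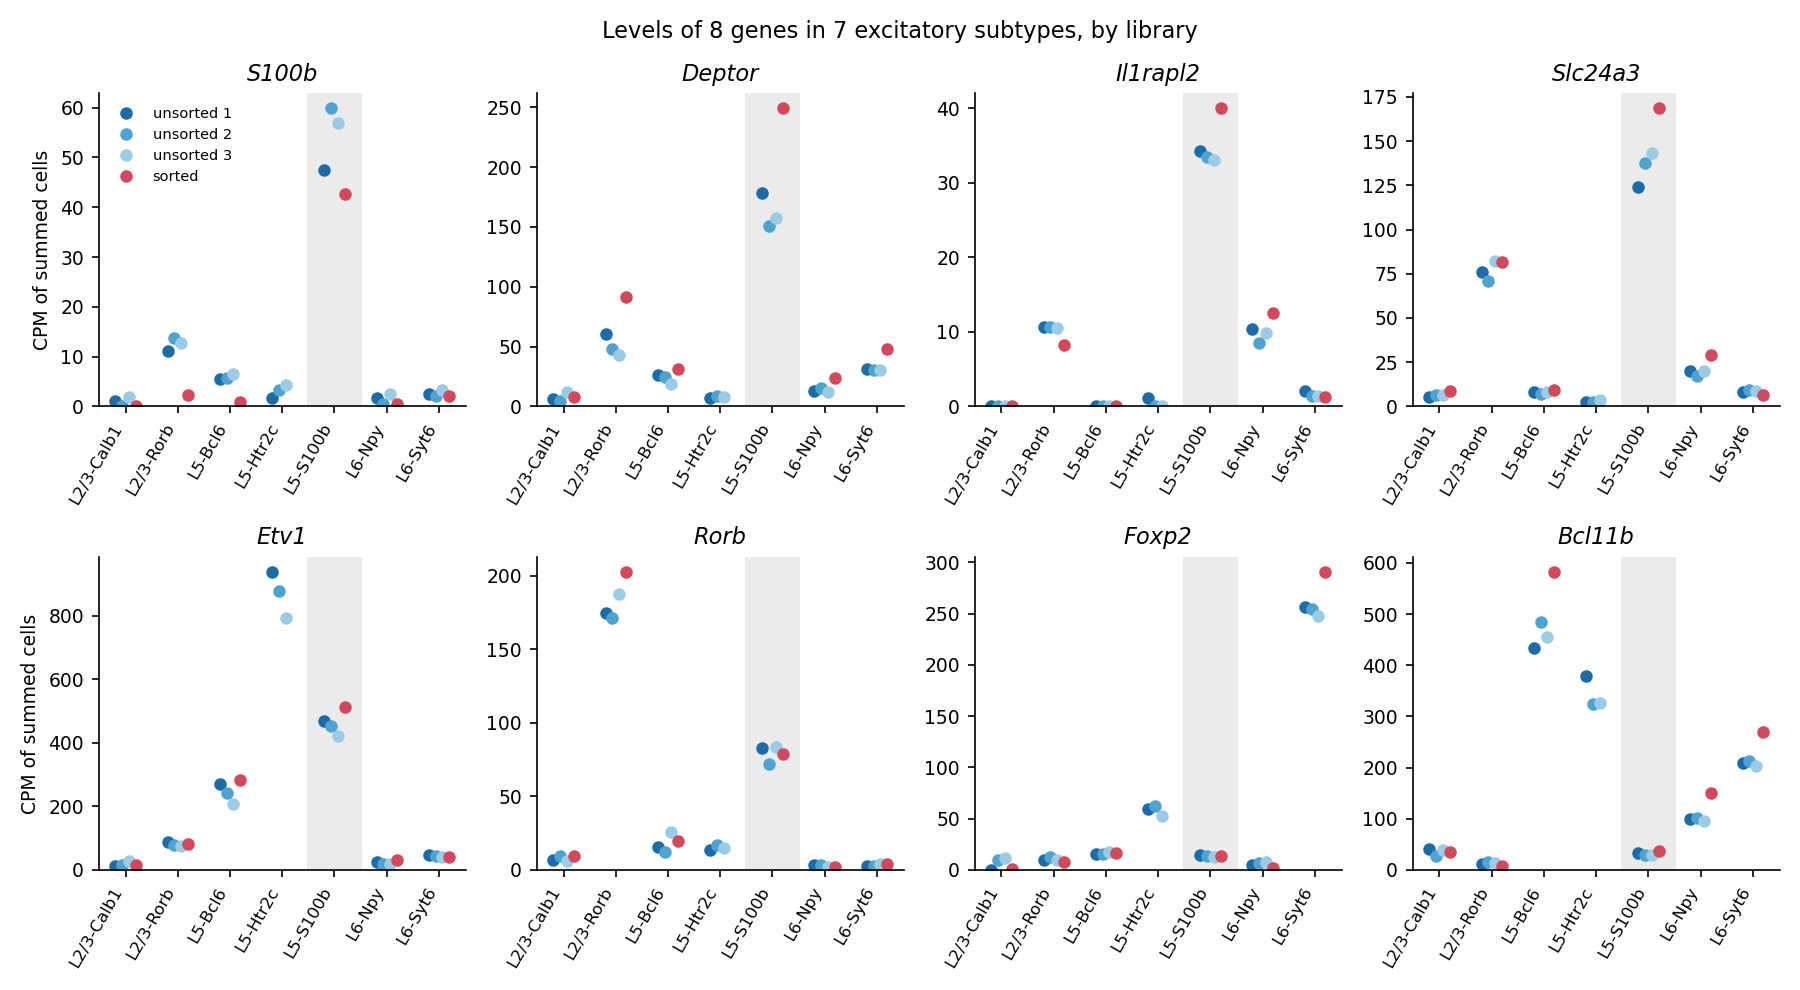
Levels of 8 genes in each of the 7 excitatory subtypes, one panel per gene, in CPM of TMM-scaled sums on a linear axis, with a point for each library; the 4 sorted L5-Htr2c cells are not drawn. S100b, Deptor, Il1rapl2 and Slc24a3 stand highest in L5-S100b in every library drawn, Etv1 stands higher in L5-Htr2c, Rorb in L2/3-Rorb, and Foxp2 and Bcl11b are low in L5-S100b.

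The plot of levels by subtype sets L5-S100b beside each of the 6 other subtypes, with all sums scaled together. S100b had a mean of 54.8 ± 6.41 CPM in L5-S100b (SD, n = 3 unsorted libraries). The next subtype was L2/3-Rorb at 12.5 ± 1.29 CPM, followed by L5-Bcl6 at 5.91 ± 0.503 CPM and by 4 subtypes under 4 CPM. The ranges of L5-S100b and L2/3-Rorb did not overlap, and neither did those of L2/3-Rorb and L5-Bcl6. L5-Htr2c at 3.11 ± 1.36 CPM, L6-Syt6 at 2.60 ± 0.574 CPM, L6-Npy at 1.5 ± 1.07 CPM and L2/3-Calb1 at 0.978 ± 0.970 CPM lay within each other's spread from neighbour to neighbour.

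A count of cells with an S100b UMI gave the same order of subtypes. An S100b UMI was seen in 38.0%, 48.2% and 45.7% of L5-S100b neurons of the unsorted libraries and in 39.6% of those of the sorted library. The unsorted mean was 44.0% ± 5.35 against 8.84% ± 1.27 in L2/3-Rorb neurons (SD, n = 3). After each cell was thinned to 2000 UMIs, the share was 7.75% ± 1.01 in L5-S100b and 1.70% ± 0.0791 in L2/3-Rorb.

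Cells outside the metadata gave the background of free RNA. Microglia-type cells, gated by their markers and with medians of 4116 to 4396.5 UMIs, had an S100b UMI in 3.68% ± 0.341 of cells, and endothelial-type cells with medians of 3001 to 3455.5 UMIs in 1.92% ± 0.569. At 2000 UMIs these shares were 1.81% ± 0.104 and 1.09% ± 0.211, so that L5-S100b neurons lay above both and L2/3-Rorb neurons did not lie above microglia-type cells. Astrocyte-type cells held S100b in 35.9% ± 4.13 of cells at 2000 UMIs and oligodendrocyte-type cells in 13.3% ± 0.387. The name-giving gene was thus seen in a smaller share of L5-S100b neurons than of astrocyte-type cells at equal depth.

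**Figure D2:**
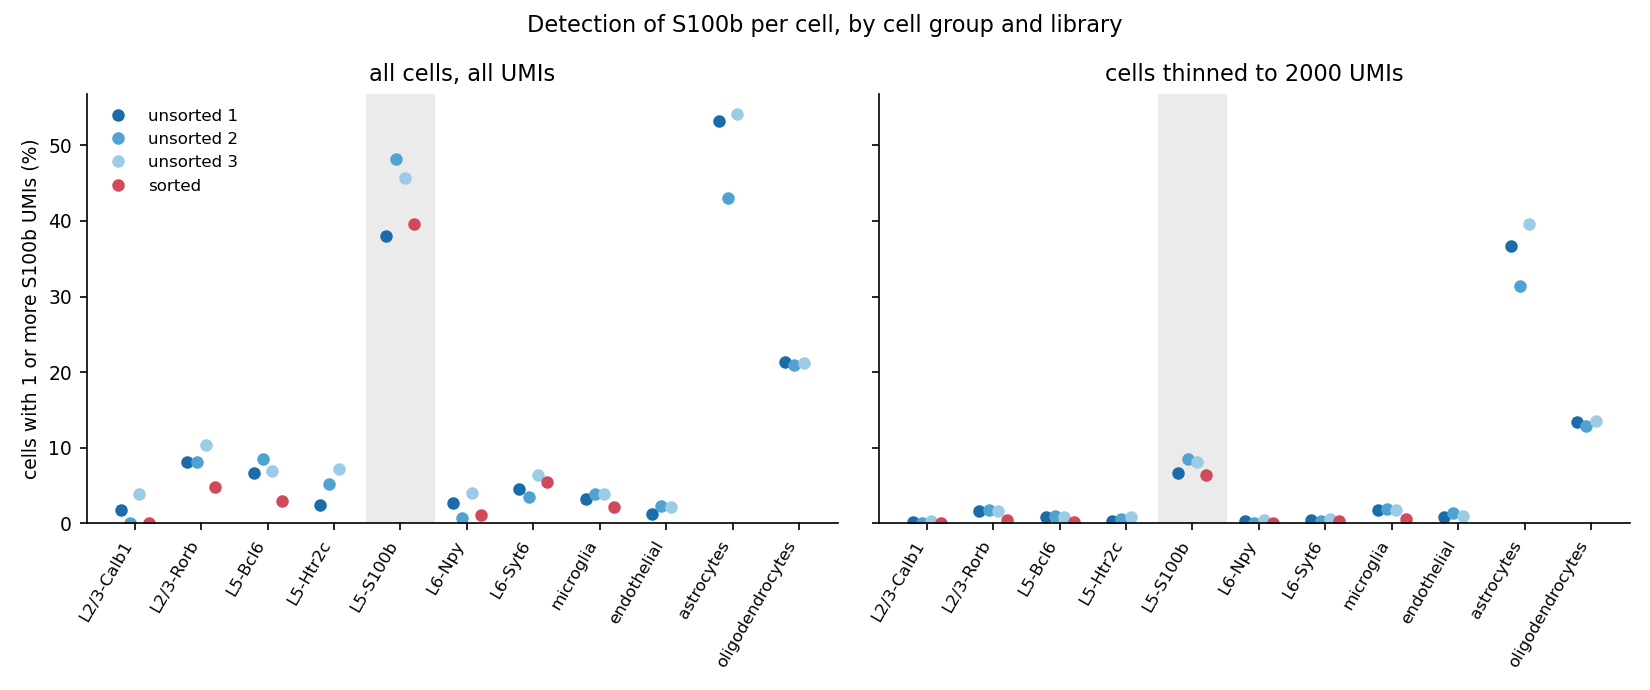
Percent of cells with an S100b UMI in the excitatory subtypes and in gated non-neuronal cells, with all UMIs and after thinning to 2000 UMIs per cell, a point for each library; groups under 20 cells are not drawn. At 2000 UMIs the unsorted L5-S100b mean is 7.75%, against 1.70% in L2/3-Rorb, 1.81% in microglia-type and 35.9% in astrocyte-type cells.

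Genes of other astrocyte and oligodendrocyte products were then read in L5-S100b neurons, here in CPM of unscaled totals. Aldh1l1, a folate enzyme used as an astrocyte marker, stood at 3.54, 3.08, 3.24 and 2.98 CPM in L5-S100b and at 0.392, 0.231, 0.529 and 0.22 CPM in the other neurons. The defining astrocyte genes Aqp4, Gja1 and Gfap lay between 0 and 0.559 CPM in every L5-S100b sum, and the summed level of the 9 astrocyte markers was 23.6, 24.4 and 28.8 CPM in the unsorted L5-S100b sums against 33.8, 32.3 and 34.9 CPM in the other neurons. Aldh1l1 was therefore higher while this sum was not, and Aldoc made up 13.7, 16.9 and 19.8 CPM of the unsorted L5-S100b sums. Aqp4 also lay above the other neurons in each library, at 0.405, 0.342, 0.447 and 0.384 against 0.314, 0.168, 0.407 and 0.195 CPM. It rested on 4, 3, 4 and 4 counts in L5-S100b. Fgfr3 lay above them in all but unsorted replicate 3, while Slc4a4 and Slc1a3 lay below them in each library.

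The myelin genes Mbp and Mobp were also higher in L5-S100b than in the other neurons together, though not than in every subtype. In TMM-scaled sums, L5-Bcl6 held 102 ± 9.58 CPM of Mbp against 94.7 ± 2.24 CPM in L5-S100b. L6-Npy held 21.7 ± 2.74 CPM of Mobp against 21.4 ± 0.822 CPM in L5-S100b (SD, n = 3 unsorted libraries). Against all other neurons of a library, the levels were as follows. Mbp stood at 90.0, 87.6, 91.3 and 102 CPM against 34.5, 34.4, 33.2 and 34.2 CPM, and Mobp at 19.6, 21.1, 20.1 and 18.1 CPM against 6.75, 6.07, 7.06 and 7.93 CPM. Mog, Mag, Ermn, Opalin and Cldn11 reached at most 1.72 CPM in any L5-S100b sum.

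Of the 8 oligodendrocyte markers, 2 of the 3 that were abundant enough for a ratio stood higher and 0 lower. Their sum was 132 and 132 CPM in L5-S100b of unsorted replicates 1 and 2 against 61.6 and 62.5 CPM, and 15.7% and 20.4% of L5-S100b neurons against 3.23% and 3.49% of the others held at least 3 of these markers. Without all cells that held at least 3 markers of any non-excitatory class, the log2 ratio was 1.41 for Mbp, 1.27 for Mobp and 4.09 for S100b, close to the values with them (1.38, 1.44 and 4.07).

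Across genes, 10371 had a mean of at least 5 CPM over the 8 sums. Of these, 216 (2.08%) were at least 2-fold higher in L5-S100b in all 4 libraries and 288 (2.78%) at least 2-fold lower, and the median log2 ratio over all 10371 genes was -0.04. L5-S100b ranked first of the 7 subtypes in 72 of the 216 higher genes, and L2/3-Rorb came second in 51 of those 72. In 12 of the 216, the level was at least 2-fold above every other subtype. When L6-Syt6 neurons were left out of the remainder, 67 genes stood higher and 100 lower, an alternative chosen after the data had been seen.

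S100b was followed by genes of several kinds. Deptor, an inhibitor of mTOR signalling, stood at 168, 143, 150 and 228 CPM in L5-S100b and at 28.8, 27.6, 26.9 and 43.8 CPM in the others, a log2 ratio of 2.44 ± 0.08. Il1rapl2, a synaptic relative of the interleukin-1 receptor, stood at 32.3, 31.7, 31.6 and 36.5 CPM against 3.46, 2.72, 3.03 and 3.66 CPM, a log2 ratio of 3.34 ± 0.13. Slc24a3, a potassium-dependent sodium/calcium exchanger, stood at 117, 130, 137 and 154 CPM against 15.2, 14.3, 16.4 and 17.1 CPM, a log2 ratio of 3.09 ± 0.11. For each of these the ranges of the 2 cell groups did not overlap, and the ratios varied less between libraries than that of S100b.

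Utrn, which encodes the dystrophin relative utrophin, had a log2 ratio of 3.55 ± 0.28, Nell1, a secreted glycoprotein gene, 3.03 ± 0.28, and Susd5 3.74 ± 0.32. Dach1, a transcriptional regulator, had 2.82 ± 0.17, the adenylate cyclase gene Adcy7 2.40 ± 0.13 and Cnr1, the cannabinoid receptor of axon terminals, 2.26 ± 0.14. Others among the 20 highest were Ptgfrn, Etv1, Lhx2, Klhdc8a, Scube1, Nectin1, Wls, Foxo1 and Vstm2l, with log2 ratios of 2.16 to 2.85. Of the 20 highest, L5-S100b ranked first of the 7 subtypes in 12.

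Genes that separated L5-S100b from every other subtype were fewer. Among genes with at least 20 CPM, by the smallest of the log2 ratios to the 6 others, the order was S100b at 2.08, Deptor at 1.69, Il1rapl2 at 1.62, Nell1 at 1.21, Fam3c at 1.17, Utrn at 1.07, Dach1 at 1.07, Usp6nl at 0.92, Hes1 at 0.87 and Slc24a3 at 0.82. Of these 10, 7 were also among the 20 highest against all other neurons. The 5 further genes that were at least 2-fold above every other subtype lay under 20 CPM and were chosen for mention after their values were seen. They were Pde1c at 2.83, Thsd4 at 1.28, Cpne2 at 1.19, Gm765 at 1.10 and Shc4 at 1.04. Fam3c, a secreted cytokine-like protein gene, stood at 145 ± 1.78 CPM in L5-S100b and at 64.0 ± 2.75 CPM in the next subtype, L6-Syt6 (SD, n = 3). Nell1 and Hes1 had L6-Npy next, Utrn had L5-Bcl6 next, and S100b, Deptor, Il1rapl2, Dach1, Usp6nl and Slc24a3 all had L2/3-Rorb next.

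The 10 lowest genes had their highest level in L6-Syt6 (Ighm, Sla, Sebox, Syt6 and Sema5b), in L5-Htr2c (Ctgf, Rnf152, Sema5a and Zcchc12) or in L2/3-Calb1 (Ankrd63). Ighm stood at 0.801, 0.343, 0.227 and 0.440 CPM in L5-S100b and at 31.7, 31.9, 32.6 and 26.8 CPM in the others, a log2 ratio of -5.99 ± 0.69. Syt6, the synaptotagmin gene that names that subtype, had -5.20 ± 0.81, the adaptor gene Sla -5.88 ± 0.97 and Ctgf, a matrix-associated growth factor gene of layer 6b, -5.71 ± 0.41. The others among the 10 lowest were Sebox, Rnf152, Sema5a, Sema5b, Ankrd63 and Zcchc12, at -4.39 to -5.71. Without L6-Syt6 neurons in the remainder, Syt6 had a log2 ratio of -0.15 and Ighm of -0.72, while Ctgf kept -2.76.

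**Figure D3:**
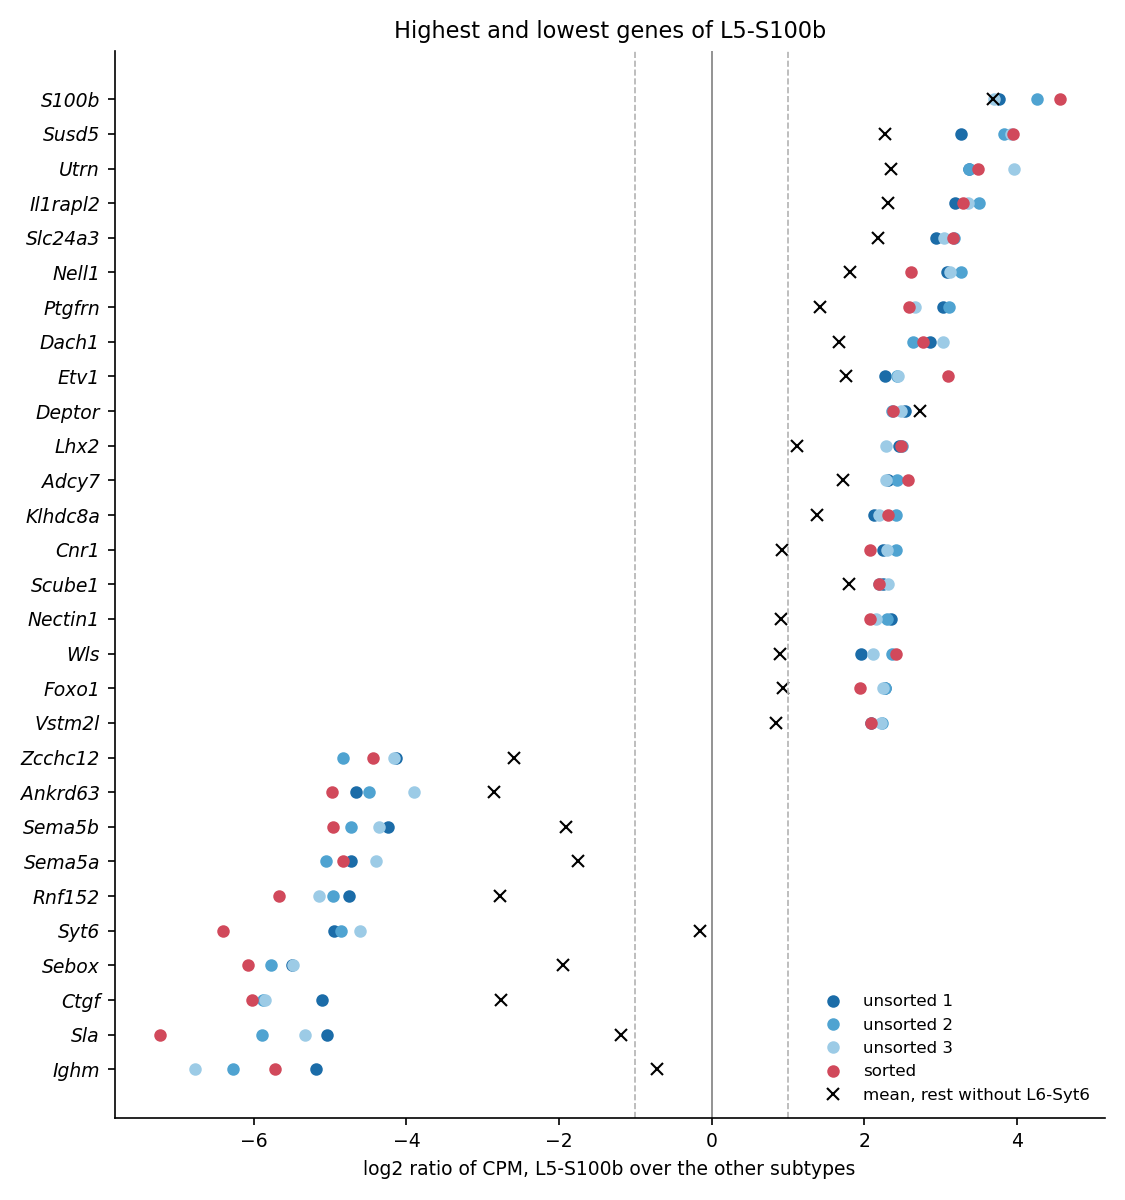
Log2 ratio of L5-S100b to the other excitatory neurons for genes named among the 20 highest and for the 10 lowest, with a dot per library, a cross for the mean when L6-Syt6 neurons are left out of the remainder, and dashed lines at the 2-fold limits. The dots of the highest genes lie closer together than those of Sla, Syt6 and Ighm, and the crosses of Ighm (-0.72) and Syt6 (-0.15) fall inside the limits while that of S100b (3.69) stays far outside.

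The layer 5 label was checked against its markers. Of 22 genes listed for intratelencephalic neurons of layer 5, 11 were abundant enough for a ratio, 4 stood higher and 4 lower, with a median log2 ratio of 0.28. The higher ones included S100b, Deptor and Etv1. Etv1, the layer 5 transcription factor gene, stood at 441, 430, 403 and 468 CPM against 91.4, 79.5, 73.9 and 54.8 CPM, a log2 ratio of 2.56 ± 0.36, but its level in L5-Htr2c was higher still, 871 ± 72.9 against 448 ± 24.2 CPM (SD, n = 3).

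The lower ones were Whrn at -3.02, Lypd1 at -2.10, Arhgap25 at -1.83 and Col6a1 at -1.66. Arhgap25 stood above the others instead (1.12) once L6-Syt6 neurons were left out, so its sign rests on that subtype. Fezf2 at -0.86, Pcdh19 at 0.67 and Tox2 at 0.28 passed the limit in neither direction. Of the higher genes, S100b and Deptor ranked first among the subtypes, and Etv1 did not.

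Genes of the extratelencephalic and near-projecting classes stood lower or did not pass the limit in all 4 libraries. Of 12 extratelencephalic genes, 5 had a ratio, 0 stood higher and 2 lower, and of 8 near-projecting genes, 6 had a ratio, 0 stood higher and 2 lower. On the higher side without passing were the near-projecting gene Trhr at 1.13 ± 0.30 and the extratelencephalic genes Crim1 at 0.66 ± 0.09 and Ldb2 at 0.10 ± 0.04. Bcl11b, which encodes the transcription factor Ctip2 of extratelencephalic neurons, stood at 31.6, 27.5, 28.1 and 33.5 CPM against 189, 191, 179 and 226 CPM, a log2 ratio of -2.70 ± 0.09 that was -2.24 without L6-Syt6. Pou3f1, another gene of that class, had -2.32 ± 0.20, and the near-projecting gene Tshz2 -2.63 ± 1.05. L5-Bcl6 at 457 ± 25.5 CPM and L5-Htr2c at 343 ± 30.8 CPM held the most Bcl11b and L5-S100b held 30.7 ± 2.48 CPM (SD, n = 3).

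Of 12 corticothalamic genes of layer 6, all 12 had a ratio, 9 stood lower and 1 higher, with a median log2 ratio of -3.40. Foxp2, a transcription factor gene of those neurons, stood at 13.9, 12.4, 12.4 and 12.0 CPM against 171, 174, 166 and 182 CPM, a log2 ratio of -3.77 ± 0.13 that turned to 0.24 without L6-Syt6. Tle4 had -3.51 ± 0.16. The one higher gene of that list was Nos1 at 1.51, which encodes neuronal nitric oxide synthase and was chosen for mention after its value was seen. Of 10 genes listed for layer 2/3, 8 had a ratio and 1 stood higher, Rorb at 1.87 ± 0.16, while Cux2 at -2.20, Calb1 at -1.48 and Cdh13 at -1.13 stood lower.

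Transcription factor genes moved both ways. Of 32 genes of cortical identity, 30 had a ratio, 6 stood higher and 8 lower, with a median of 0.31. Rorb stood at 78.1, 68.3, 79.9 and 71.7 CPM against 19.2, 17.4, 22.1 and 22.7 CPM, and the L2/3-Rorb subtype held more, 178 ± 8.79 against 79.6 ± 6.54 CPM. Lhx2, a LIM homeodomain gene, had a log2 ratio of 2.43 ± 0.10, which was 1.11 without L6-Syt6. The low end was held by Foxp2, Tle4, Bcl11b and Tshz2, whose values are above.

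L2/3-Rorb was the subtype most like L5-S100b. Over 10371 genes within a library, log levels of L5-S100b had a Pearson r of 0.971 to 0.974 with L2/3-Rorb, against 0.742 to 0.876 with L5-Htr2c. These correlations run across genes of 1 library, which are not independent replicates and share the depth of the sums, and the lowest of them rests on 4 sorted L5-Htr2c cells. In all 3 unsorted libraries, 120 genes were at least 2-fold higher and 83 at least 2-fold lower in L5-S100b than in L2/3-Rorb. The same counts were 327 and 160 against L6-Npy, 438 and 202 against L2/3-Calb1, 460 and 168 against L5-Bcl6, 527 and 394 against L6-Syt6, and 750 and 280 against L5-Htr2c. Both other layer 5 subtypes thus differed from L5-S100b in more genes than L2/3-Rorb did.

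Genes for receptors and ion channels described the neurons further. Of 36 receptors for peptides and lipids, 19 had a ratio, 4 stood higher and 2 lower. Cnr1 stood at 440, 425, 437 and 436 CPM against 92.4, 79.8, 88.8 and 103 CPM, and L2/3-Rorb was close behind at 351 ± 34.4 against 458 ± 9.36 CPM. Crhr1, a receptor for corticotropin-releasing hormone, had a log2 ratio of 1.55 ± 0.16, which was 0.27 without L6-Syt6. Sstr1, a somatostatin receptor gene, and Oprk1, the kappa opioid receptor gene, stood lower at -2.0 and -1.62.

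Of 38 receptors for monoamines and acetylcholine, 18 had a ratio, 0 stood higher and 4 lower. Adra2a, an inhibitory adrenergic receptor gene, had -3.54 ± 0.49, the serotonin receptor gene Htr1f -2.25 ± 0.39, Adra1a -1.65 ± 0.34 and the muscarinic receptor gene Chrm3 -1.63 ± 0.07. Of 99 potassium channel genes, 53 had a ratio, 7 stood higher and 2 lower, with a median of 0.05. Kcnc2, a Kv3 channel gene, stood at 32.8, 29.3, 27.8 and 24.8 CPM against 6.78, 6.40, 6.83 and 5.69 CPM, a log2 ratio of 2.14 ± 0.11. L2/3-Calb1 held about as much Kcnc2, 30.5 ± 0.912 against 31.6 ± 2.91 CPM in L5-S100b (SD, n = 3 unsorted libraries). Kcnab1 had 1.63, Kcng1 1.54, Kcnb2 1.5 and Kcnh2 1.37.

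Of 4 HCN channel genes, 3 had a ratio and Hcn3 stood higher at 1.33 ± 0.11. Of 27 glutamate receptor genes, 21 had a ratio and 1 stood higher, Grm2 at 1.29 ± 0.12, a metabotropic receptor that dampens transmitter release. None of 20 calcium channel, 8 sodium channel and 13 GABA receptor genes with a ratio passed the limit in all 4 libraries, and the highest of them was Cacna1i, a T-type calcium channel gene, at 1.07 ± 0.11. Slc17a7, the vesicular glutamate transporter used to pick excitatory neurons, had 0.26 ± 0.06, and Slc17a6, its relative of subcortical and deep-layer neurons, had -3.09 ± 0.30.

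Genes of wiring and secreted signals were also uneven. Of 75 axon guidance genes, 48 had a ratio, 7 stood higher and 5 lower. Sema3d, a secreted semaphorin gene, stood at 17.7, 18.3, 17.1 and 19.7 CPM against 3.60, 3.59, 3.48 and 3.80 CPM, a log2 ratio of 2.31 ± 0.04. Its relatives Sema5a at -4.75 and Sema5b at -4.57 lay at the other end, the semaphorin receptor gene Plxnd1 had 2.01 ± 0.12 and the co-receptor gene Nrp1 -2.51 ± 0.38. Of 92 cadherins and protocadherins, 34 had a ratio, 3 stood higher (Cdh10 at 1.70, Cdh12 at 1.67 and Pcdh15 at 1.26) and 2 lower (Cdh6 at -1.95 and Cdh13 at -1.13). Of 34 neuropeptides and secreted signals, 18 had a ratio, 5 stood higher and 4 lower, with Wnt4 at 2.02 ± 0.08 and Npy at -2.70 ± 0.59. L2/3-Rorb held about as much Wnt4, 100 ± 9.11 against 103 ± 2.97 CPM in L5-S100b (SD, n = 3 unsorted libraries).

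Activity-dependent genes and genes of respiration had medians below that of all genes (-0.04). Of 20 activity genes, all had a ratio, 0 stood higher and 5 lower, with a median of -0.93. Fos stood at 279, 252, 314 and 282 CPM against 576, 582, 631 and 612 CPM, a log2 ratio of -1.10 ± 0.09, and Btg2 had -1.5 ± 0.23. Without L6-Syt6 neurons these were -0.42 and -0.94. Of 93 oxidative phosphorylation genes, 84 had a ratio, 0 stood higher and 4 lower, with a median of -0.47. Over all genes 2.78% stood lower, and nothing is read from these 4. Ndufs3, a complex I subunit gene, had -1.29 ± 0.15, which was -0.18 without L6-Syt6. Of 101 genes of the ribosomal list, 92 had a ratio and 1 stood lower, Rps6ka2 at -1.32, which encodes a kinase and not a ribosomal protein.

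The pooled barcode gave a measure that is no gene of the cells. A barcode UMI was seen in 82.9%, 87.3% and 83.4% of L5-S100b neurons of the unsorted libraries and in 92.3% of those of the sorted library. The other neurons had 56.7%, 51.9%, 55.2% and 86.5%. L5-S100b lay above the remainder in 4 of 4 libraries, by a mean of 23.9 percentage points, with a range of 5.82 in the sorted library to 35.4 in unsorted replicate 2. In an exact two-sided sign-flip permutation test over the 4 libraries, p was 0.13, the smallest that 4 libraries allow.

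Barcode UMIs per 10000 UMIs were 9.58, 10.4, 12.0 and 4.83 in L5-S100b and 4.07, 3.11, 3.83 and 3.62 in the remainder. After thinning to 10000 UMIs per cell the mean difference in the share was 27.6 points, and without L6-Syt6 neurons in the remainder 15.7 points, higher in 4 of 4 libraries each time. The sorted library held the smallest difference in the share, and all its cells had passed a sort for EGFP. Whether the barcode feature entered the clustering was not given in the sources used here.

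L5-S100b neurons took a larger share of neurons in the sorted library. The share of excitatory neurons was 15.3%, 13.6% and 13.2% in the unsorted libraries, with Wilson intervals at a level of 0.95 of 14.1% to 16.7%, 12.3% to 15% and 12.0% to 14.6%, and 19.5% (17.7% to 21.5%) in the sorted library. These intervals cover counting error only. The difference of 5.47 points had p = 0.25 in an exact permutation test of 1 library against 3, the smallest p that this design allows. Among barcode-positive neurons, with at least 1 barcode UMI, the shares were 20.9%, 20.9%, 18.7% and 20.6%, a difference of 0.363 points (exact permutation p = 1).

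Within L5-S100b, the sorted library was set against the 3 unsorted libraries with edgeR's quasi-likelihood test. Of 13246 genes, 598 (4.51%) were higher and 1184 (8.94%) lower in the sorted library with adjusted p below 0.05 and a change of 0.5 or more on the log2 scale, 13.5% in either direction, with a median log2 fold change of -0.0020 over all genes tested. The spread in this test came from the unsorted libraries alone, and p-values measure only the spread between these libraries, which may be technical. The depth and mitochondrial share that differ between the libraries are given above, and their part in these results was not tested.

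Most genes of respiration were lower in sorted L5-S100b neurons. Of 87 oxidative phosphorylation genes tested, 62 fell and 0 rose, with a median log2 fold change of -0.71. Ndufs3 stood at 74.8, 75.9 and 82.6 CPM in the unsorted libraries and at 40.5 CPM in the sorted library, a log2 fold change of -0.90 ± 0.09 (SE; edgeR adjusted p = 6.26e-06). Of 95 genes of the ribosomal list, 20 fell and 1 rose, with a median of -0.23.

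Receptor and channel genes gave calls in the other direction. Of 22 glutamate receptor genes, 7 rose and 0 fell, with a median of 0.27. Grin3a, an NMDA receptor subunit gene, stood at 33.6, 33.3 and 31.4 CPM in the unsorted libraries and at 70.1 CPM in the sorted library, a log2 fold change of 1.13 ± 0.08 (SE; edgeR adjusted p = 6.48e-07). Of 64 potassium channel genes, 10 rose and 0 fell, with a median of 0.13, and of 20 activity genes 0 rose or fell. Kcnq1ot1, a long non-coding RNA gene, is among the 10.

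Markers of other cell types gave calls in the lower direction alone, in unequal numbers. Of 7 microglial genes tested 6 fell, of 7 endothelial genes 5, and of 4 inhibitory neuron genes 3. Of 5 oligodendrocyte genes 2 fell, of 2 oligodendrocyte precursor genes 1 and of 5 astrocyte genes 1. Mbp had a log2 fold change of 0.09 and Mobp of -0.25, and neither was called. The 4 lowest called genes had no count in the sorted sum, so no fold is given for them. Vip, an interneuron peptide gene, had counts of 29, 23, 55 and 0 in unsorted replicates 1, 2 and 3 and the sorted library, Selenop 25, 21, 23 and 0, Ctss 31, 8, 21 and 0 and Slc1a3 21, 13, 12 and 0. The part of free RNA from other cells in these genes was not tested. The 4 highest were Gm21962, Ccdc125, Gm45486 and Gm9821, with 12 to 39 counts in the sorted sum and 0 to 6 in each unsorted sum.

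The genes that describe L5-S100b were read in the same comparison. They had been chosen by ratios in all 4 libraries, the sorted one included, so this reading is not independent of the choice. In the other neurons, sorted against unsorted, the higher genes had a median log2 fold change of 0.13 and the lower genes of -0.14. Of the 216 higher genes, 19 (8.80%) rose and 10 (4.63%) fell in sorted L5-S100b neurons, with a median log2 fold change of 0.08. Of the 288 lower genes, 275 were tested, 16 (5.82%) rose and 72 (26.2%) fell, with a median of -0.25. Deptor rose by 0.60 ± 0.08 (SE; edgeR adjusted p = 8.4e-05). S100b, at 44.8, 56.8 and 54.3 CPM in the unsorted libraries and 39.0 CPM in the sorted library, had a log2 fold change of -0.37 ± 0.12, short of the limit of 0.5.

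**Figure D4:**
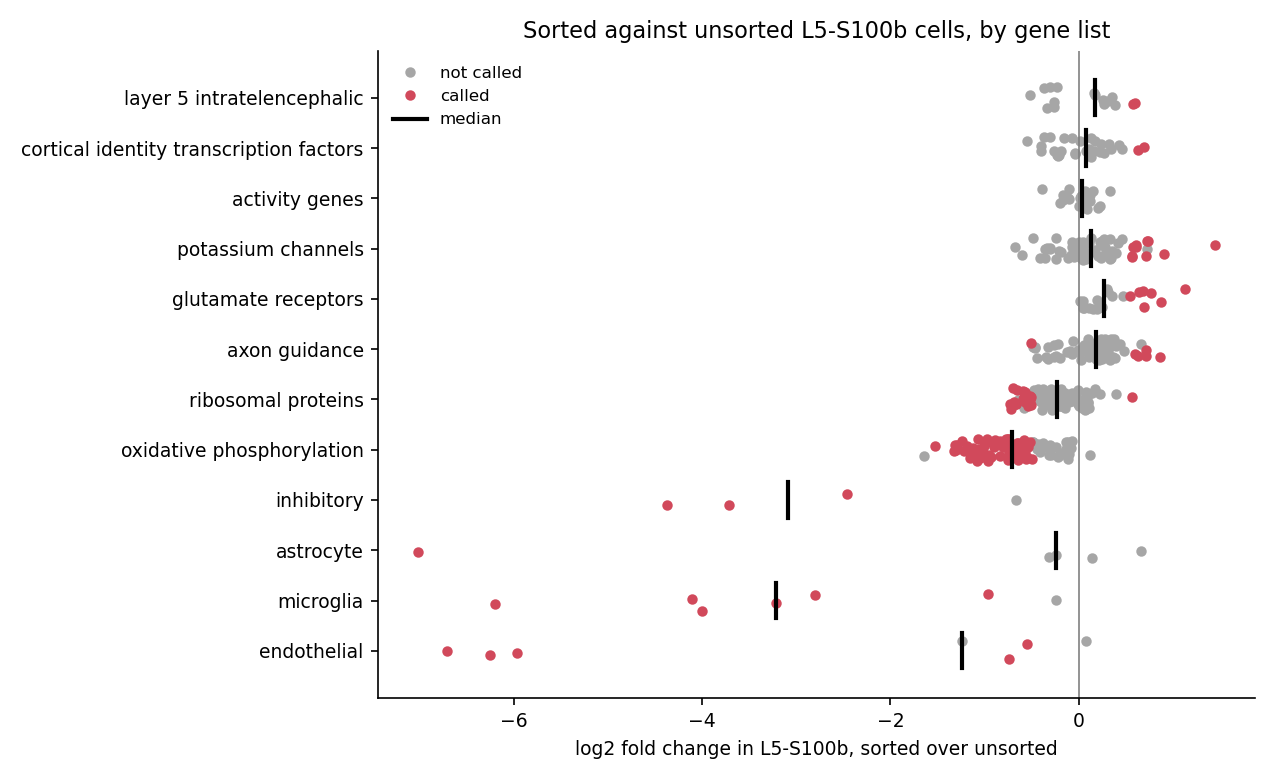
Log2 fold change of sorted against unsorted L5-S100b neurons for the tested genes of 12 gene lists, a dot per gene, called genes in red, with a bar at the median of each list. Oxidative phosphorylation (median -0.71), microglia and inhibitory genes lie below 0, and the called glutamate receptor and potassium channel genes lie above it.

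Whether sorting had another effect in L5-S100b than in the remaining neurons was tested as an interaction in edgeR. Of 15490 genes, 87 (0.562%) differed, 31 with a higher and 56 with a lower sorted effect in L5-S100b, and DESeq2 called 8 of the 1253 genes that it gave an adjusted p. At an unadjusted p under 0.05, edgeR had 1873 genes. Syt6 had a sorted effect of -1.38 in L5-S100b and 0.23 in the remainder, a difference of -1.60 ± 0.36 (SE; edgeR adjusted p = 0.00393), from 30, 28, 33 and 14 counts in the L5-S100b sums. A sub-cluster of L5-S100b led by Defb1 and Syt6, described below as sub-cluster 9, held 24 unsorted and 0 sorted cells, and its part in this difference was not tested. Nell1 differed by -0.50 ± 0.13 (edgeR adjusted p = 0.0134).

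L5-Htr2c neurons numbered 122, 97 and 98 without sorting and 4 in the sorted library, and this bore on the interaction. Etv1 differed by 0.76 ± 0.06 (edgeR adjusted p = 1.45e-13), and by 0.20 without L5-Htr2c in the remainder (adjusted p = 0.0803). Tshz2, Htr2c, Lypd1 and Trhr also lost their calls in edgeR. Their differences went from 1.64, 1.54, 0.73 and 0.59 to -0.28, -0.15, 0.27 and 0.06. Cyr61 and Npy lost their calls with differences that changed little without L5-Htr2c neurons, from -0.72 to -0.68 and from -1.10 to -1.06. S100b differed by 0.74 ± 0.22 with them (edgeR adjusted p = 0.0462) and by 0.74 without them (adjusted p = 0.0633), while Syt6 kept its call (adjusted p = 0.00718). Nell1 had -0.46 (adjusted p = 0.0329), short of the limit of 0.5.

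L5-S100b neurons were also compared among themselves by the barcode. Those with at least 5 barcode UMIs numbered 270, 242, 239 and 207, and those with 0 numbered 74, 43, 54 and 24. With library as a block, 129 of 12030 genes (1.07%) passed edgeR's test as higher in barcode-high cells and 189 (1.57%) as lower, 2.64% in either direction. Of the 216 genes that describe L5-S100b as higher, 40 were higher and 11 lower in barcode-high cells, and of 260 tested lower genes 8 were higher and 28 lower. Barcode-high cells were 62.5%, 71.6%, 73.3% and 66.1% of the L5-S100b cells whose sums picked these genes. These counts are therefore not independent of the choice. S100b was higher by 1.17 ± 0.18 and Deptor by 1.05 ± 0.08 (SE; edgeR adjusted p = 3.25e-05 and 1.69e-11), while Cux2 had -2.18 and Cdh13 -1.70. Without unsorted replicate 2, 180 genes were called in all. Barcode-high cells made up 83.0%, 85.7% and 87.4% of the unsorted cells of sub-cluster 1, described below, which is high in Deptor and low in Cdh13, and 43.2%, 53.8% and 54.9% of those of sub-cluster 2, which is the opposite. The part of this make-up, and of depth, which was not matched, was not tested.

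The highest called genes were Arhgap25 at 2.33, Ccnb1 at 2.22, Pbld1 at 2.14 and Ly6g6e at 2.10, and the lowest were C130073E24Rik at -3.67, Dcn at -2.83, A930028N01Rik at -2.81 and Pdlim5 at -2.63. Pbld1 lost its call with DESeq2 (adjusted p = 0.256), with no replicate block and without each of 3 libraries, and Ly6g6e with DESeq2 (adjusted p = 0.313) and under 5 other alternatives. Arhgap25 had 75, 83, 74 and 143 counts in barcode-high sums and 4, 2, 3 and 1 in barcode-zero sums. The counts of the lowest 4 were at most 17 in any sum.

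Clustered alone, the 1409 L5-S100b neurons fell into 9 sub-clusters of 319, 255, 193, 169, 161, 111, 104, 73 and 24 cells. They are called by number, their genes are a description, and values are means over libraries with at least 10 cells of the sub-cluster, in CPM of unscaled totals. Of sub-cluster 6, 106 of 111 cells and of sub-cluster 8, 65 of 73 cells came from the sorted library, so these may be that library and not a type. Sub-clusters 2 and 6 shared 4 of their 10 leading genes (Cdh13, Gpx3, Rgs12 and Sertm1), and sub-clusters 1 and 8 shared 3 (Arhgap25, Pde1c and Utrn).

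S100b was uneven across the sub-clusters. It stood at 83.4 CPM in sub-cluster 5, 80.7 in sub-cluster 4, 69.8 in sub-cluster 3 and 49.7 in sub-cluster 1. It was 14.7 CPM in sub-cluster 2 and 4.47 in sub-cluster 7. An S100b UMI was seen in 63.6% to 78.6% of sub-cluster 5 neurons over the unsorted libraries, in 18.8% to 22.0% of those of sub-cluster 2 and in 4.00% to 18.5% of those of sub-cluster 7. The label L5-S100b therefore held cells with little S100b in every library.

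Sub-cluster 7 was low in some genes that describe L5-S100b and not in others. It was led by Pld5, Cbln4, Pou3f1 and Lypd6, and held 25, 27, 21 and 31 cells in the 4 libraries. Pou3f1 stood at 29.9 CPM there against 1.54 CPM in the remaining L5-S100b neurons. Etv1 stood at 20.4 against 478 CPM, Lhx2 at 7.04 against 69.2 CPM and Utrn at 8.18 against 40.5 CPM. In contrast, Slc24a3 stood at 157 against 136 CPM and Rorb at 161 against 69.6 CPM.

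Sub-cluster 2 was led by Npy2r, a neuropeptide Y receptor gene, Cdh13, Sertm1, Cd24a and Col6a1. Cdh13 stood at 275 CPM there against 19.3 CPM in the remaining L5-S100b neurons, while Deptor stood at 27.4 against 187 CPM. Sub-cluster 1 was led by Egln3, a prolyl hydroxylase gene of oxygen sensing, Pde1c, Olfm3, Arhgap25 and Utrn. Deptor stood at 332 CPM there against 127 CPM. The genes that describe L5-S100b as a whole were thus not shared evenly by its cells.

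Sub-cluster 3 was led by Lypd1 and Nr4a2 and held the activity genes Egr2, Egr4 and Btg2 among its 10 leading genes, with Egr4 at 407 against 143 CPM. Sub-cluster 4 was led by Cux2, Glra3, Htr2c and Ccnd2, and its cells of unsorted replicate 1 had a median of 7216 UMIs. Sub-cluster 5 was led by Thsd4, Ccdc3, the receptor gene Kit and Rxrg, and its leading ratios were small, the highest a log2 ratio of 1.61. Sub-cluster 9 had 10 or more cells in unsorted replicate 3 alone and was led by Defb1, Syt6, Rnf152 and Sla, with Foxp2 among its 10 leading genes.

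The barcode also differed between sub-clusters. In the unsorted libraries, 94.6%, 96.4% and 93.7% of sub-cluster 1 neurons and 77.3%, 71.2% and 76.8% of sub-cluster 2 neurons were barcode-positive. After thinning to 10000 UMIs these were 90.2%, 93.6% and 90.3% against 64.3%, 68.1% and 68.4%. The ranges of the 2 sub-clusters did not overlap, and no test was made because sub-clusters came from the same cells.

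**Figure D5:**
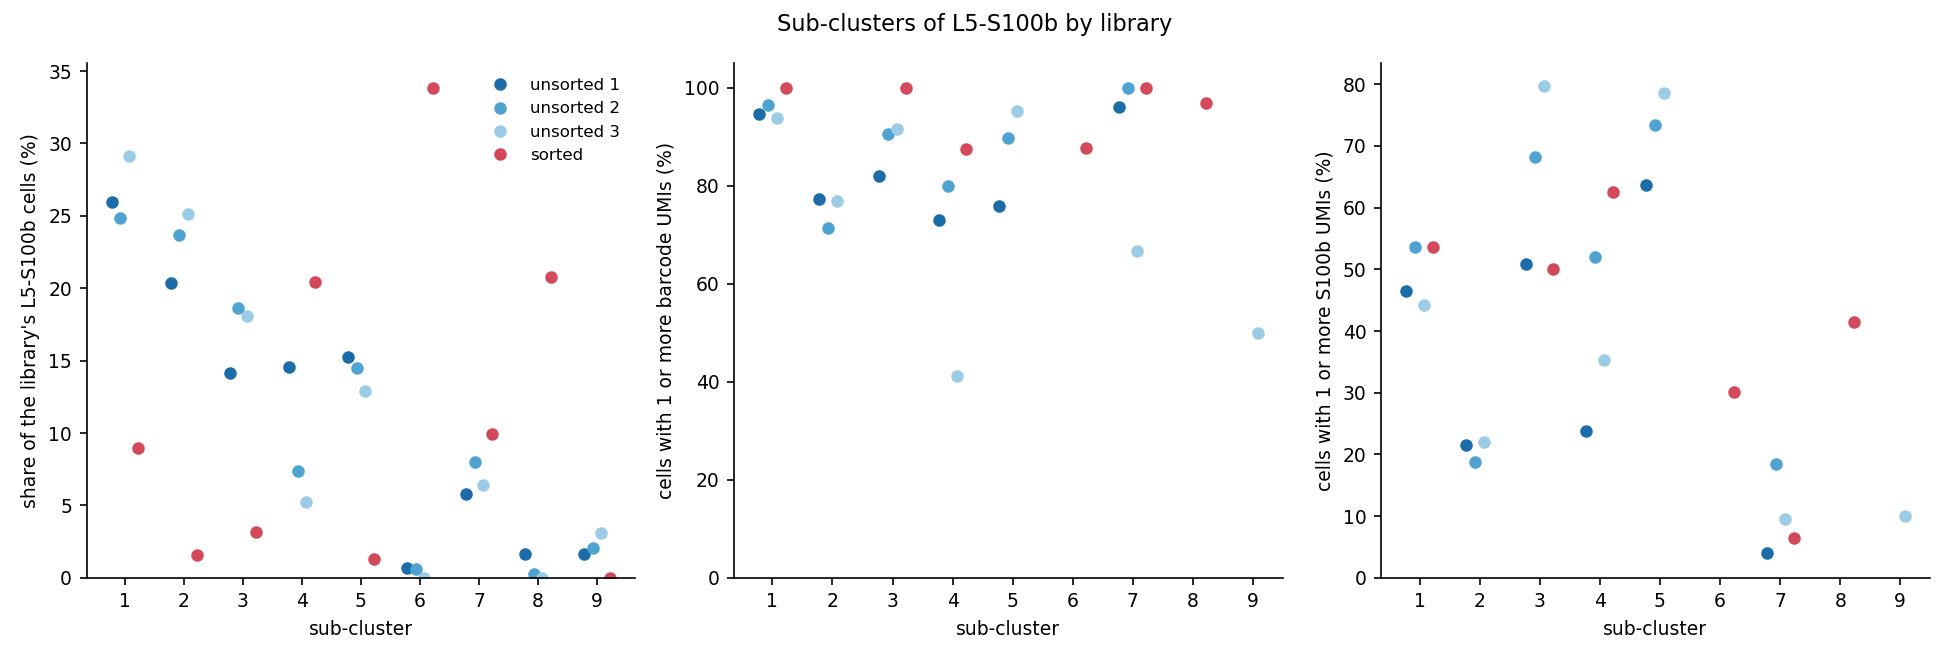
The 9 sub-clusters by library, in panels for the share of L5-S100b neurons, the percent of barcode-positive cells and the percent of cells with an S100b UMI; values of fewer than 10 cells are not drawn in the last 2 panels. Sub-clusters 6 and 8 are almost wholly of the sorted library, sub-cluster 1 lies above sub-cluster 2 in barcode-positive cells, and sub-clusters 2 and 7 are low in S100b.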

How the data were processed

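Single-cell 3' libraries were read as the deposited UMI counts per gene and cell barcode, which the authors made with Cell Ranger against mm10 and kept unnormalized. Per the labels and the study's methods, the authors kept cells by limits on genes, counts and mitochondrial share, removed low-quality and contaminated clusters, scaled the data in Seurat 3.1.4 with counts, genes, mitochondrial share and sorting condition regressed out, and made Leiden clusters in Scanpy. The deposited metadata gave each cell its cluster and a mitochondrial percent computed by the authors. No doublet caller was run here, and L5-S100b cells were kept whether or not they held markers of another class.

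UMI counts were summed per library for L5-S100b and for all other excitatory neurons. Ratios used TMM-scaled CPM with a prior count of 2, and genes with a mean of at least 5 CPM. A gene was counted when every library passed a log2 ratio of 1, with no test, because the clusters were made from the same genes. Tests used edgeR 4.0.16 in R 4.3.3 (quasi-likelihood, Benjamini-Hochberg adjusted p under 0.05, log2 fold change of at least 0.5) over all genes tested, with DESeq2 1.42.0 as an alternative. Single values over libraries had exact permutation tests in scipy 1.17.1. Sub-clusters came from scanpy 1.11.5 and leidenalg 0.10.2 with 2000 variable genes, 20 components, 15 neighbours and a resolution of 0.5. Figures were drawn in matplotlib 3.10.9.

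The 3 fits were tested on simulated data. All genes were given 1 coefficient of variation, 0.0443, taken from the 3 unsorted L5-S100b sums. Changes were planted only in well-counted genes. The shares called therefore do not hold for genes with few counts or for sums with a wider spread. Of genes changed by a log2 fold of 1, 99% were called for sorted against unsorted L5-S100b (13019 genes), 86% for the interaction (15083 genes) and 100% for barcode-high against barcode-zero (11817 genes).

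L5-S100b and the remainder were paired by the library they came from. Deviations of the 2 sums from their unsorted means correlated at 0.264 to 0.299 within a library over 10371 genes, and at -0.0126 at most across libraries. Because deviations from a mean add up to 0, positive values within a library pull those across libraries down. The values across libraries are therefore not separate evidence.

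The members and the 29 gene lists were chosen with earlier results of these data known. The genes named were S100b, the 20 highest and 10 lowest ratios at 20 CPM or more without clone-like names, the 10 that most exceeded every other subtype, up to 5 members per list with the largest ratios, all layer 5 intratelencephalic markers, and the 4 highest and 4 lowest calls per test. Others were named after their values were seen. The alternatives changed the scaling, the limits, the depth, the make-up of the remainder, the test and the libraries. Leaving L6-Syt6 or L5-Htr2c out of the gene comparisons, thinning to 2000 UMIs and clustering unsorted cells alone were chosen after seeing the data. Gene coordinates are those of GRCm38 in GENCODE. Fold changes of the authors were not used. Some genes that met the rule for named genes are not reported here.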

Additional observations from a re-analysis of the deposited data

Results flagged for a closer look

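The effect of sorting differed between L5-S100b and the other excitatory neurons in 87 genes by the interaction in edgeR, and most of the extreme ones rest on few counts. Counts are given for unsorted replicates 1, 2 and 3 and the sorted library.

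Jchain, an antibody-joining chain gene, had the highest difference at 3.90 (edgeR adjusted p = 0.00509), from 13, 14, 7 and 14 counts in L5-S100b and 686, 34, 39 and 15 in the others. The 686 counts of 1 library carried it, since without unsorted replicate 1 the difference was 1.23 (adjusted p = 0.535). Tac2, a tachykinin gene, differed by 3.87 (edgeR adjusted p = 0.0382), from 11, 3, 8 and 7 counts against 56, 32, 46 and 2, and by 3.70 without unsorted replicate 2 (adjusted p = 0.0616). Cx3cr1, a microglial chemokine receptor gene, differed by 2.46 (edgeR adjusted p = 0.0273), from 13, 7, 24 and 15 counts against 75, 56, 88 and 10, and by 2.34 without unsorted replicate 1 (adjusted p = 0.0575). Gm26785 differed by 2.35 (edgeR adjusted p = 0.00282), from 5, 6, 8 and 27 counts against 90, 74, 69 and 48.

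In the other direction, AC163720.3 had a fitted difference of -10.15 (edgeR adjusted p = 5.5e-05) from 3, 15, 5 and 0 counts against 7, 10, 7 and 44, a size set by the 0 and no bound. Gm45833 differed by -3.64 (edgeR adjusted p = 0.00228), from 13, 2, 88 and 6 counts against 85, 90, 81 and 146, and by -1.46 without unsorted replicate 3 (adjusted p = 0.369). Stard8 differed by -2.33 (edgeR adjusted p = 0.0374), from 20, 8, 12 and 4 counts against 134, 154, 144 and 163, and by -1.90 without unsorted replicate 1 (adjusted p = 0.182). Syt6 differed by -1.60 (edgeR adjusted p = 0.00393), from 30, 28, 33 and 14 counts against 4707, 4332, 4358 and 4659.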

How the results depend on the processing

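Counts of genes that describe L5-S100b depended on the limit and on the remainder. With no limit on CPM, 393 stood higher and 676 lower, with a 1.5-fold limit 492 and 774, with the other subtypes weighted equally 74 and 139, and without L6-Syt6 67 and 100. Without that subtype, Arhgap25 (1.12), Cyr61 (0.11) and Foxp2 (0.24) turned to the higher side. Leaving out 1 library gave 228 to 251 higher and 295 to 309 lower genes. The share of L5-S100b neurons with an S100b UMI, 44.0%, was 28.8% at 10000 UMIs, 7.75% at 2000 UMIs and 28.5% with 2 or more UMIs.

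For sorted against unsorted L5-S100b neurons, leaving out 1 library gave 1771 to 1860 calls. No paired analysis was possible because the sorted library shares no animal with the unsorted libraries. In the interaction DESeq2 called 8 of 1253 genes against 87 of 15490 in edgeR, where leaving out 1 library gave 83 to 95. For barcode-high against barcode-zero neurons the fit with the replicate block called 318 genes and the fit with no replicate block 56, DESeq2 called 147, and barcode-positive cells in place of barcode-high ones gave 202. Leaving out 1 library gave 180 to 285, the lowest without unsorted replicate 2. The cause was not tested in any of these. The barcode difference ran from 20.1 to 29.9 points and from 4.66 to 7.0 UMIs per 10000 over left-out libraries, and the share difference from 5.06 to 6.11 points. Over these counts and group values, 55 alternatives kept the result and 16 did not. Counts had to stay within 1.5 times the main count. The barcode and share differences only had to keep their sign, so the fall in share given next is among the 55. The difference in share fell from 5.47 to 0.363 points among barcode-positive neurons, and DESeq2 called 1209 of 9404 genes for sorted L5-S100b against 1782 of 13246 in edgeR. With 1 sorted library the spread of sorted cells was not measured, and genes with few counts were limited by depth.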
